A study of Homo sapiens with 6 samples.

Results

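The genes described here encode the machinery that brings proteins into the endoplasmic reticulum (ER), folds and glycosylates them there, and removes those that fail. They are 46 of the 60612 genes in the deposited table, and each was found on a single row. They were chosen by name from textbook roles, with earlier results of these libraries known. They fall into 10 subgroups: chaperones, protein disulfide isomerases, J-domain co-chaperones, sensors and regulators of the unfolded protein response (UPR), ER-associated degradation (ERAD), the SEC61 translocon, the TRAP complex, signal peptidase, the oligosaccharyltransferase, and the signal recognition particle (SRP). The first 5 subgroups, 23 genes, are called the folding genes, and the last 5, also 23 genes, the targeting genes.

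RNA was measured by sequencing in SH-SY5Y, an established human neuroblastoma line, after infection with 1 of 2 vectors: 3 libraries were labelled as CDKN2B-AS1 overexpression, for the long noncoding RNA antisense to the cell cycle inhibitor CDKN2B, and 3 had the control vector (a stuffer). Libraries were made with the SMART-seq HT kit, whose cDNA does not mark strand. The labels leave out the time after infection, the promoter of the vector and whether replicate libraries were cultured separately, so the spread that p-values are measured against may be technical only. The column names carry the tags LVx2 for labelled overexpression and LVx1 for control vector, which no label explains; an effect of what they mark and an effect of the insert cannot be told apart.

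Proteins that enter the ER are recognised by SRP as they leave the ribosome, pass through the SEC61 channel, lose their signal peptide and receive N-linked sugars. Chaperones and disulfide isomerases of the ER lumen then fold them, and ERAD returns misfolded ones to the cytosol. The membrane sensors ATF6, IRE1 (encoded by ERN1) and PERK respond to unfolded protein, and ATF6 and the spliced form of XBP1 activate genes of folding and degradation. A gene-level table does not tell spliced from unspliced XBP1.

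In human promoters ATF6 and XBP1 are known to act through the ER stress response element (ERSE), CCAAT and CCACG with 9 bases of any kind between them, and through another form, ERSE-II, which is ATTGG and CCACG with 1 base between them. Promoter windows of 300 bases, 250 before and 50 after the start, were available from RefSeq (GRCh38.p14) for 42 of the 46 genes, and exact matches were sought on both strands. ERSE was found in 6 of the 42 windows (14.3%) and in 22 of all 27305 windows of that length (0.0806%). ERSE-II was found in 3 of the 42 (7.14%) and in 15 of all windows (0.0549%). Among windows of tested genes ERSE was found in 12 of 8673 (0.138%) and ERSE-II in 10 (0.115%). Among 181 windows of the wider ER lists described further on, 3 had ERSE (1.66%) and 0 had ERSE-II. Since ATF6 and XBP1 are known to act on folding genes through these elements, the higher share among the 42 is no independent test. A match is a description of the letters and not a site shown to be bound. The 6 genes with ERSE were 5 chaperones and XBP1, and their elements are shown because the 2 members that rose in the test described further on are among them. Each is written 5′ to 3′ on its own strand, with the CCAAT and CCACG letters in capitals and the spacer in lower case.
HSPA5, chr9:125241391-125241409: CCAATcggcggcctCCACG
HSP90B1, chr12:103930216-103930234: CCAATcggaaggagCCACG
HSP90B1, chr12:103930321-103930339: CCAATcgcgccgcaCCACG
CALR, chr19:12938384-12938402: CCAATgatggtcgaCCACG
CANX, chr5:179698778-179698796: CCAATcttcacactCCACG
CRELD2, chr22:49918554-49918572: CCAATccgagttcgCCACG
XBP1, chr22:28800603-28800621: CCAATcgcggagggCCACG

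The elements of HSP90B1 (the second of its pair), CALR and CRELD2 lay on the strand opposite to the gene. The 250 bases before the start are shown for HSPA5 and HSP90B1, the members that rose, on the strand of the gene and with the fixed letters of exact ERSE matches in capitals. In HSP90B1 the second element reads in reverse, as CGTGG followed by ATTGG. Starts are those of RefSeq. The deposited annotation has HSPA5 at chr9:125234853-125241382 and HSP90B1 at chr12:103930107-103953931, which begins upstream of both HSP90B1 elements. The deposited CANX (from chr5:179678628) and CRELD2 (from chr22:49918167) also begin upstream of their elements.
HSPA5, chr9:125241344-125241593, minus strand: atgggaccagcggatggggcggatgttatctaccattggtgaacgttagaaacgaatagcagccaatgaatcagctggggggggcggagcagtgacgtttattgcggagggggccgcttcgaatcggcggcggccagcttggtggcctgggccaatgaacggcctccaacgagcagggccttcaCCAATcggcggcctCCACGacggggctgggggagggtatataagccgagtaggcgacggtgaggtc
HSP90B1, chr12:103930160-103930409, plus strand: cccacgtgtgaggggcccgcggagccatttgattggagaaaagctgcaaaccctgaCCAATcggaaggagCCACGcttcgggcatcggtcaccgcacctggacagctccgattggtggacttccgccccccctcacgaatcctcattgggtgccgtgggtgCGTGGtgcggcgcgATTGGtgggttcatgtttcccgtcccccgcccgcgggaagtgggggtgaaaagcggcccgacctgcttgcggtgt

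ERSE-II was found in HYOU1, SDF2L1 and HERPUD1. The 9 genes with either element had a median log2 fold change of 0.50, from 0.22 for HYOU1 to 0.76 for HSPA5. The 32 tested genes with a window and neither element had a median of 0.17, from -0.42 for DNAJB9 to 0.74 for EDEM1. All 9 were folding genes, while the 32 also held targeting genes. Medians were 0.44 over all tested folding genes and 0.07 over the targeting genes, so this comparison does not separate element from role. Folding genes with a window and neither element ran from -0.42 for DNAJB9 to 0.74 for EDEM1. A difference between folding genes with and without an element was not tested. FPKM is fragments scaled by gene length and library total, and fold changes are differences of log2(FPKM + 0.5), labelled overexpression minus control vector, so that the change of a gene at a low level is understated. PDIA3, SPCS1, RPN1 and STT3B had no entry in the promoter table.

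CDKN2B-AS1 itself was at 0.338, 0.304 and 0.353 FPKM in the libraries labelled overexpression, against 0.272, 0.288 and 0.191 FPKM in the control vector libraries, a ratio of means of 1.33, with 0.1 as the two-sided p of the exact permutation test and as the smallest p that 3 libraries against 3 allow. The groups are therefore called by what the labels say. Recovered depth ran from 20466583 to 48996425 fragments in labelled overexpression and from 29048596 to 45102020 in control vector libraries. Library correlations were 0.9749 to 0.983 within labelled overexpression, 0.959 to 0.968 within control vector and 0.959 to 0.969 between the groups, across 13984 tested genes, which are not independent. The adrenergic neuroblastoma markers were present except TH, at 0 to 0.0257 FPKM in labelled overexpression and 0 to 0.2997 FPKM in control vector libraries, and their summed level was 954 to 1017 FPKM in labelled overexpression and 829 to 991 FPKM in control vector libraries. The sum is mostly DBH, and GATA3 and GATA2 stood apart upward without passing the test, at log2 fold changes of 0.40 and 0.27 (limma-trend, Benjamini-Hochberg adjusted p of 0.101 and 0.230); their part in the results was not tested. Summed fibroblast markers were at 48.9 to 57.3 FPKM in labelled overexpression and 47.4 to 58.9 FPKM in control vector libraries. Schwann and glial markers summed to 3.34 to 3.54 FPKM in labelled overexpression and 3.03 to 6.92 FPKM in control vector libraries, and epithelial markers to 0.620 to 1.37 FPKM in labelled overexpression and 0.517 to 0.854 FPKM in control vector libraries. Immune markers summed to 0.889 to 1.89 FPKM in labelled overexpression and 0.547 to 1.93 FPKM in control vector libraries, with 4 of 6 at 0 in every library. PTPRC, which defines leukocytes, was one of these.

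Of the 22 folding genes tested, 20 had higher mean log2 values in the libraries labelled overexpression, and the targeting genes were centred near the median of all genes. Across all tested genes limma-trend with Benjamini-Hochberg adjustment called 74 higher (0.529%) and 85 lower (0.608%) at an adjusted p of 0.05, and the median log2 fold change was 0.05. HSPA5 and HSP90B1 rose, 2 of the 45 members that were high enough to test, and 0 members fell. At an unadjusted limma-trend p under 0.05 there were 16 members higher and 2 lower (35.6% of the 45 higher), against 10.4% higher and 7.34% lower among all tested genes. The lowest labelled overexpression library exceeded the highest control vector library for 18 members (40.0%), and the groups stood apart the other way for 2, against 14.2% above and 9.90% below among all tested genes. The member median was 0.22, with 36 values above 0 and 9 below, and 56.8% of all tested genes had values above 0. With limma-voom on recovered fragments 3 members passed higher, adding PDIA3 to the pair, and 0 lower, against 0.565% higher and 0.329% lower among all tested genes.

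Among the members the values divided by role. Such a division was not seen in the wider lists described further on. There, other ER folding factors and other targeting genes each had a median of 0.07. Other ERAD and other N-glycosylation genes had 0.10 and 0.05. For the folding genes the median was 0.44, and the groups stood apart upward for 16 (72.7% of those tested) and downward for 1. Of the 23 targeting genes, 16 had values above 0, the median was 0.07, and the groups stood apart upward for 2 (8.70%) and downward for 1. Among all tested genes the groups stood apart upward for 14.2% and downward for 9.90%, and 56.8% had values above 0. Summed over all 23 folding genes, the level was 1359 to 1404 FPKM in labelled overexpression and 1032 to 1086 FPKM in control vector libraries, without overlap. Summed over the 23 targeting genes it was 2396 to 2587 FPKM in labelled overexpression and 2451 to 2523 FPKM in control vector libraries, with overlap. In bulk RNA a change in the share of cells and a change of RNA per cell cannot be told apart. The member lists were drawn up with earlier results of these libraries known, so the shares and medians are descriptions and carry no test of the list.

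**Figure D1:**
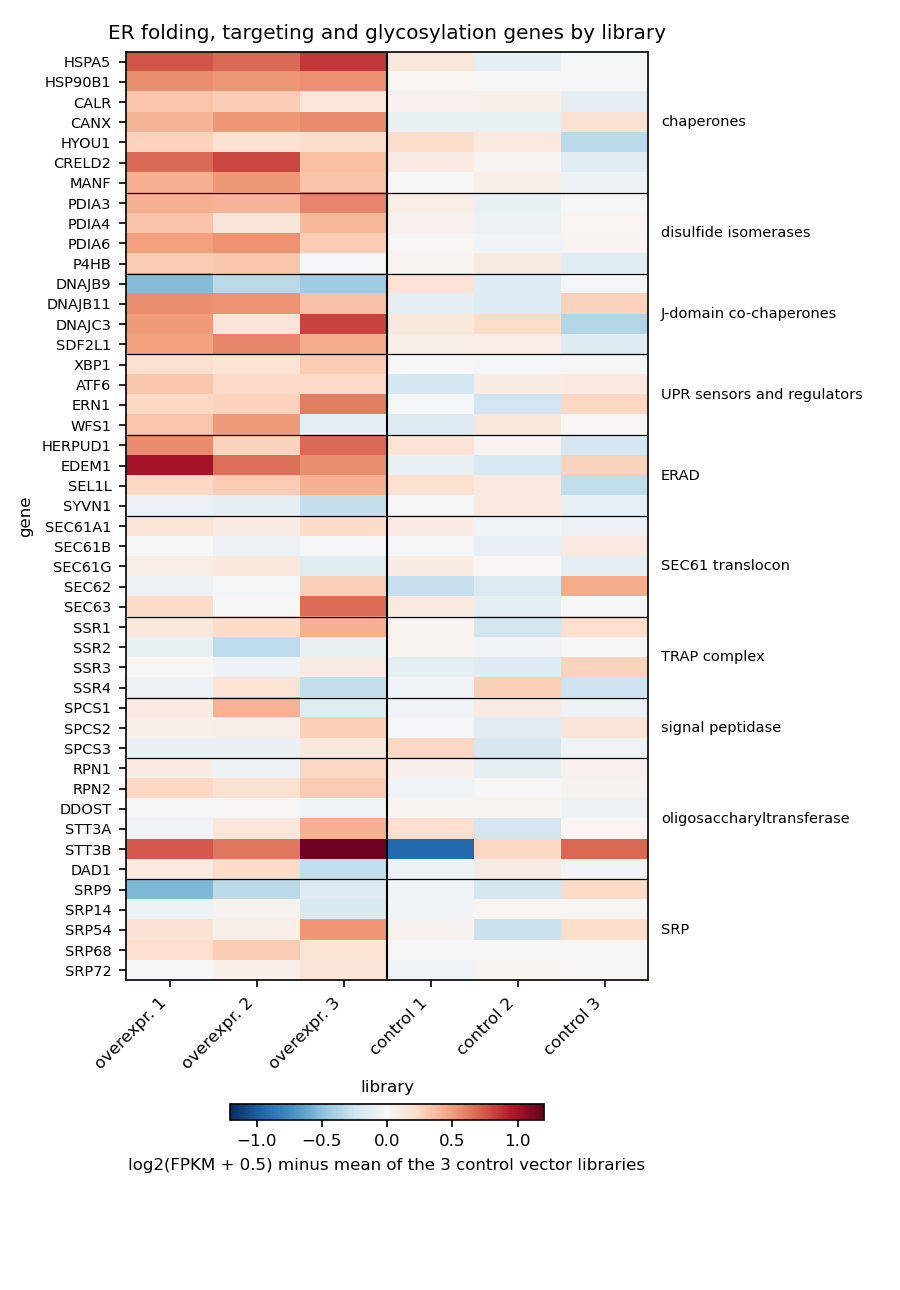
Each cell is log2(FPKM + 0.5) of 1 gene in 1 library minus the gene's mean over the 3 control vector libraries, with the 46 genes in rows by subgroup and the 3 labelled overexpression libraries left of the 3 control vector libraries. The upper rows, folding genes with a median log2 fold change of 0.44, are mostly red on the left, and the lower rows, targeting genes with a median of 0.07, are mixed.

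Among the chaperones, all 7 genes had log2 fold changes above 0, with a median of 0.50. The groups stood apart upward for 6 of them (85.7%, against 14.2% of all tested genes). HSPA5 encodes BiP, the Hsp70 of the ER lumen, which also holds the stress sensors inactive. It had 118, 113 and 127 FPKM in labelled overexpression libraries 1 to 3, against 77.4, 65.1 and 69.0 FPKM in control vector libraries 1 to 3. All 3 labelled overexpression values exceeded every control value, and the means were 119 ± 7.34 FPKM in labelled overexpression and 70.5 ± 6.32 FPKM in control vector libraries (SD, n = 3 each). The log2 fold change was 0.76 (SE 0.10, limma-trend with Benjamini-Hochberg adjusted p = 0.0224), with a 95% interval of 0.52 to 0.99 and the 19th smallest p of the 13984 genes. A processed pseudogene, HSPA5P1, was at 1.25 FPKM in labelled overexpression and 0.691 FPKM in control vector libraries.

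HSP90B1 encodes GRP94, the Hsp90 of the ER, which folds integrins and Toll-like receptors. It had 49.4, 48.4 and 49.4 FPKM in labelled overexpression libraries, against 34.1, 33.4 and 33.0 FPKM in control vector libraries. The libraries within each group were close together, with means of 49.1 ± 0.561 FPKM in labelled overexpression and 33.5 ± 0.573 FPKM in control vector libraries (SD, n = 3 each). The log2 fold change was 0.54 (SE 0.10, limma-trend with Benjamini-Hochberg adjusted p = 0.0381). Its exons overlap those of C12orf73 on the other strand, a gene with 15.9% as many fragments that was at 21.5 FPKM in labelled overexpression and 16.7 FPKM in control vector libraries, and reads of such partners cannot be told apart without strand. Neither call held up when single libraries were left out. HSPA5 lost its call without any 1 library other than control vector replicate 3 (adjusted p of 0.0787 to 0.104), and HSP90B1 lost it without any 1 of the 6 (adjusted p of 0.0566 to 0.162, limma-trend with Benjamini-Hochberg adjustment). HSP90B1 was also not called with median-of-ratios scaling (limma-trend, Benjamini-Hochberg adjusted p = 0.0515), and neither gene was called without a filter on low values (adjusted p = 0.132 for HSPA5 and 0.117 for HSP90B1) or without the mean-variance trend (0.135 and 0.155). Their fold changes stayed within 0.59 to 0.87 for HSPA5 and 0.48 to 0.65 for HSP90B1 over the 17 alternatives.

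The lectin chaperones CANX (calnexin) and CALR (calreticulin), which hold glycoproteins during folding, differed in size. CANX averaged 36.5 ± 2.03 FPKM in labelled overexpression and 25.8 ± 2.87 FPKM in control vector libraries (SD, n = 3 each), a log2 fold change of 0.50 that did not pass (limma-trend, Benjamini-Hochberg adjusted p = 0.0844). CALR averaged 155 ± 11.05 FPKM in labelled overexpression and 130 ± 8.46 FPKM in control vector libraries (SD, n = 3 each), a log2 fold change of 0.26. CRELD2 and MANF, small secreted proteins known as markers of ER stress, had values of 0.61 and 0.43 on the same scale (limma-trend, Benjamini-Hochberg adjusted p of 0.0854 and 0.0893). HYOU1, the nucleotide exchange factor for BiP known as GRP170, was the chaperone whose groups overlapped, at 0.22. Its control vector library 3 was at 12.7 FPKM and the other 2 at 18.8 and 17.5 FPKM, and the value without that library was 0.06.

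The disulfide isomerases, which form and rearrange disulfide bonds, all had values above 0 (median 0.37). The groups stood apart upward for 3 of 4 (75%, against 14.2% of all tested genes). The test called 0 (limma-trend), and 1 was past the adjusted threshold with limma-voom. Higher at an unadjusted limma-trend p under 0.05 were 3 (75%, against 10.4% of all tested genes). PDIA3, the isomerase that works with calnexin and calreticulin, had 156, 154 and 174 FPKM in labelled overexpression libraries, against 122, 109.9 and 115 FPKM in control vector libraries. The groups stood apart, and the log2 fold change of 0.47 (SE 0.10) lay just outside the threshold (limma-trend, Benjamini-Hochberg adjusted p = 0.0520). It passed in 6 of the 17 alternatives. The pseudogene PDIA3P1 was at 10.2 FPKM in labelled overexpression and 7.41 FPKM in control vector libraries, and PDIA3P2 at 35.2 and 17.7 FPKM. Over the 6 libraries they averaged 1017 and 134 fragments, against 20887 for PDIA3. CATSPER2P1, whose exons overlap those of PDIA3 on the other strand, averaged 1216 fragments, at 12.1 FPKM in labelled overexpression and 6.69 FPKM in control vector libraries. Pseudogenes were matched by name and shared sequence was not examined, so PDIA3's own share of such fragments is uncertain. PDIA6 and PDIA4 had 0.44 and 0.29, and P4HB, the founding isomerase and a subunit of prolyl hydroxylase, had 0.21 with overlapping groups. PDIA6 overlaps ATP6V1C2, at 72.5 FPKM in labelled overexpression and 58.1 FPKM in control vector libraries, and P4HB overlaps RP11-498C9.2, each on the other strand.

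**Figure D2:**
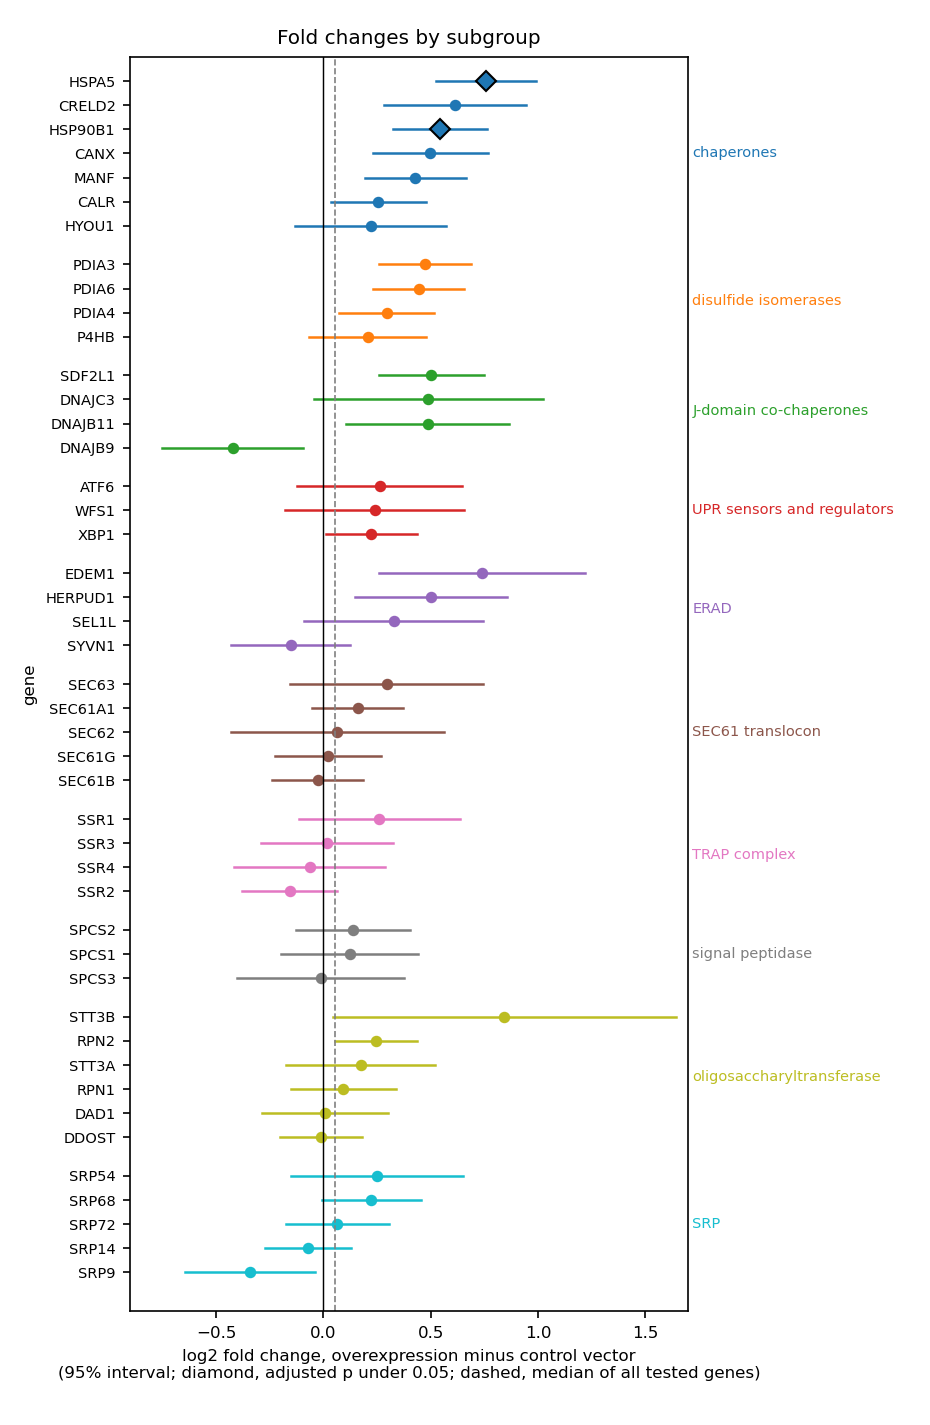
Points are the log2 fold change, labelled overexpression minus control vector, of each of the 45 tested genes, bars are limma-trend 95% intervals, diamonds mark an adjusted p under 0.05, and the dashed line is the median of all tested genes (0.05). HSPA5 (0.76) and HSP90B1 (0.54) are the diamonds, DNAJB9 (-0.42) and SRP9 (-0.34) lie farthest to the left, and STT3B (0.84) has the widest interval.

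The J-domain co-chaperones, which stimulate BiP's ATPase, and their partner SDF2L1 differed in sign. SDF2L1, which forms a complex with DNAJB11, had 55.9, 60.03 and 54.7 FPKM in labelled overexpression libraries, against 42.0, 42.3 and 35.9 FPKM in control vector libraries, a log2 fold change of 0.50 (SE 0.11, limma-trend with Benjamini-Hochberg adjusted p = 0.0628). DNAJB11 (ERdj3) had 0.49, with groups apart. It overlaps TBCCD1 on the other strand and RP11-134F2.8 on its own, which had 52.5% and 40.5% as many fragments. TBCCD1 was at 10.9 FPKM in labelled overexpression and 10.1 FPKM in control vector libraries. RP11-134F2.8 was at 64.3 and 49.5 FPKM, so the value of DNAJB11 is uncertain. DNAJC3, a co-chaperone known as p58IPK, had 0.49 with overlapping groups.

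DNAJB9 (ERdj4), which is known as a target of spliced XBP1 and a repressor of IRE1, went the other way. Its values in every library are given because its sign was seen to differ. It had 7.89, 9.11 and 8.47 FPKM in labelled overexpression libraries, against 13.02, 10.3 and 11.4 FPKM in control vector libraries. Every labelled overexpression value lay below every control value, with means of 8.49 ± 0.610 FPKM in labelled overexpression and 11.6 ± 1.37 FPKM in control vector libraries (SD, n = 3 each). The log2 fold change of -0.42 (95% interval -0.75 to -0.09) did not pass over all genes (limma-trend, Benjamini-Hochberg adjusted p = 0.184), and it was below 0 in all 17 alternatives. In the subgroup as a whole 0 genes passed, and 0 passed with limma-voom. There were 2 higher (50%) and 1 lower at an unadjusted limma-trend p under 0.05. Among all tested genes the shares were 10.4% higher and 7.34% lower.

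Of the 3 UPR sensors and regulators tested, 0 passed (limma-trend or limma-voom), and all 3 had values between 0.22 and 0.26. Only 1 was higher at an unadjusted limma-trend p under 0.05 (33.3%, against 10.4% of all tested genes). XBP1 RNA was at 66.5, 64.9 and 71.7 FPKM in labelled overexpression libraries, against 58.03, 57.4 and 58.03 FPKM in control vector libraries. The control libraries were nearly equal and the groups did not overlap, but the log2 fold change was 0.22 (SE 0.10, limma-trend with Benjamini-Hochberg adjusted p = 0.260). ATF6 had 5.58, 5.18 and 5.19 FPKM in labelled overexpression libraries, against 3.70, 4.66 and 4.76 FPKM in control vector libraries, a log2 fold change of 0.26 with an interval of -0.12 to 0.65. ERN1, the gene of IRE1, was the member below the filter of 1 FPKM in at least 3 libraries. It had 0.395, 0.413 and 0.654 FPKM in labelled overexpression libraries, against 0.245, 0.140 and 0.395 FPKM in control vector libraries, and the groups overlapped. WFS1 (wolframin), a membrane protein that restrains ATF6, had 0.24.

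In ERAD, 3 of 4 genes had groups apart upward (75%, against 14.2% of all tested genes). The test called 0 of the 4 (limma-trend or limma-voom). Higher at an unadjusted limma-trend p under 0.05 were 2 (50%, against 10.4% of all tested genes). EDEM1, a lectin that extracts misfolded glycoproteins, had 5.16, 3.97 and 3.67 FPKM in labelled overexpression libraries, against 2.17, 1.99 and 2.92 FPKM in control vector libraries. Its log2 fold change of 0.74 (95% interval 0.26 to 1.22) was close to that of HSPA5 but less precise, at a limma-trend adjusted p of 0.131 (Benjamini-Hochberg). HERPUD1, a scaffold of the ERAD complex, had 0.50, and SEL1L, the partner that stabilises the ubiquitin ligase HRD1, had 0.33. SYVN1, which encodes HRD1 itself, had -0.15 with overlapping groups. Its exons overlap those of FAU, a ribosomal protein gene on the same strand, and of MRPL49, which had 254% and 134% as many fragments, so its value is uncertain.

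**Figure D3:**
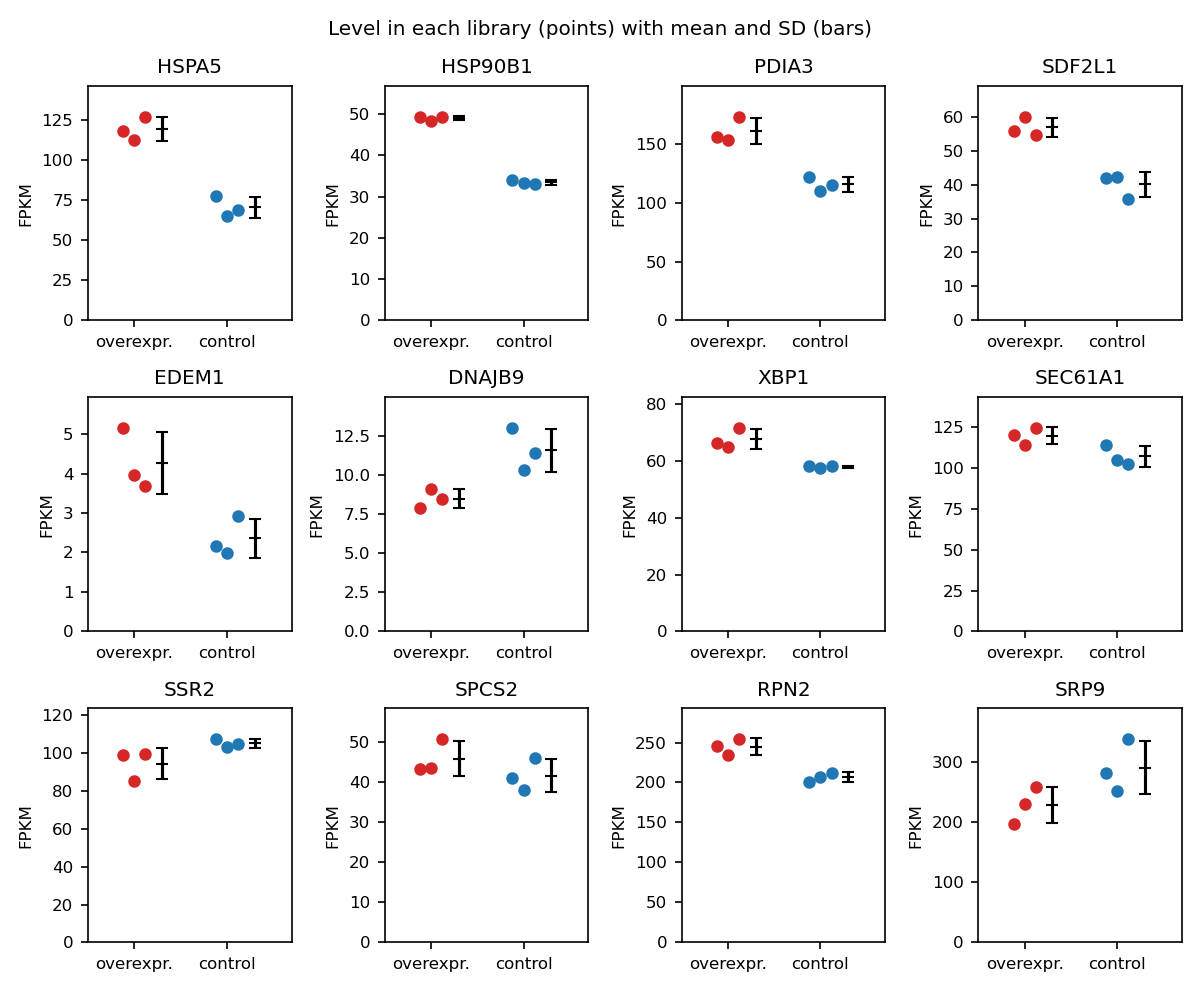
Points are the FPKM of 12 genes in each library, labelled overexpression left of control vector, with the mean and SD beside them (n = 3 each). The groups stand apart for HSPA5, HSP90B1, PDIA3, SDF2L1, EDEM1, XBP1 and RPN2 (labelled overexpression higher) and for DNAJB9 and SSR2 (lower), and overlap for SEC61A1, SPCS2 and SRP9.

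In the SEC61 translocon the groups overlapped for all 5 genes. SEC61A1, the channel subunit, had 120.02, 114 and 125 FPKM in labelled overexpression libraries, against 114, 105 and 102 FPKM in control vector libraries, a log2 fold change of 0.16 (95% interval -0.05 to 0.37). RUVBL1 overlaps it on the other strand with 84.4% as many fragments. SEC61B and SEC61G, the small subunits, had -0.03 and 0.02, with intervals of -0.24 to 0.19 and -0.23 to 0.27. SEC62 and SEC63, which serve post-translational entry and bring BiP to the channel, had 0.07 and 0.30, and SEC63 reached 8.40 FPKM in labelled overexpression library 3 against 6.01 and 5.05 FPKM in libraries 1 and 2 of that group. The test called 0 of the 5 (limma-trend, 0 at an unadjusted p under 0.05, and 0 with limma-voom).

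In the TRAP complex, which sits beside SEC61 and helps some signal peptides engage it, the values were -0.16 for SSR2, -0.06 for SSR4, 0.02 for SSR3 and 0.26 for SSR1. SSR2 had 99.0, 85.3 and 99.4 FPKM in labelled overexpression libraries, against 108, 103 and 105 FPKM in control vector libraries, below every control but by little (limma-trend, Benjamini-Hochberg adjusted p = 0.443). The lncRNA RP11-336K24.14 on the other strand of SSR2, and IDH3G on the other strand of SSR4, had 19.5% and 33.9% as many fragments as these genes. In signal peptidase, which cuts off signal peptides, the groups overlapped for all 3 genes. SPCS2 had 43.2, 43.6 and 50.9 FPKM in labelled overexpression libraries, against 40.9, 37.9 and 46.01 FPKM in control vector libraries, with overlap and a log2 fold change of 0.14. SPCS1 and SPCS3 had 0.12 and -0.01. In these 2 complexes 0 of 7 genes passed (limma-trend, 0 at an unadjusted p under 0.05, and 0 with limma-voom).

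The oligosaccharyltransferase, which transfers the N-linked glycan, held both abundant and scarce subunits. DAD1, its small membrane subunit, was the most abundant member per length, at 569 ± 102 FPKM in labelled overexpression and 560 ± 35.1 FPKM in control vector libraries (SD, n = 3 each), and its log2 fold change was 0.01 (95% interval -0.28 to 0.30). RPN2 (ribophorin II) had 246, 234 and 255 FPKM in labelled overexpression libraries, against 201, 207 and 212 FPKM in control vector libraries. It was the subunit whose groups stood apart, at 0.24 (95% interval 0.05 to 0.43, limma-trend with Benjamini-Hochberg adjusted p = 0.188), while RPN1 and DDOST had 0.09 and -0.01. The catalytic subunits were STT3A, which acts during translocation, at 0.17, and STT3B, which acts on sites that STT3A skipped, at 0.84. STT3B rested on control vector library 1, at 2.56 FPKM against 6.46 and 8.91 FPKM in libraries 2 and 3 of that group, and its value was 0.38 without that library. Labelled overexpression libraries had 9.22, 8.57 and 12.6 FPKM of STT3B, so that control vector library 3 lay within their range. The test called 0 of the 6 subunits (limma-trend or limma-voom). Of the 6, 2 were higher at an unadjusted limma-trend p under 0.05 (33.3%, against 10.4% of all tested genes).

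Among SRP proteins, the pair that forms the Alu domain differed from the rest in level per length. SRP9 had 198, 230.03 and 259 FPKM in labelled overexpression libraries, against 282, 252 and 339 FPKM in control vector libraries, so that labelled overexpression library 3 exceeded control vector library 2. Its log2 fold change was -0.34 (95% interval -0.64 to -0.04, limma-trend with Benjamini-Hochberg adjusted p = 0.230). Its partner SRP14 had -0.07 (95% interval -0.27 to 0.13), also with overlapping groups. A processed pseudogene, SRP9P1, stood at 155 FPKM in labelled overexpression and 159 FPKM in control vector libraries. It averaged 1413 fragments over the 6 libraries, against 21313 for SRP9. SRP54, the subunit that binds signal sequences, had 0.25, and SRP68 and SRP72, which bind the SRP RNA as a dimer, had 0.22 and 0.07, with the groups apart for SRP68. The test called 0 of the 5 (limma-trend or limma-voom). Of the 5, 0 were higher and 1 lower at an unadjusted limma-trend p under 0.05. Among all tested genes 10.4% were higher and 7.34% lower.

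Levels per length ranged from 564 FPKM for DAD1 to 0.374 FPKM for ERN1 as means over the 6 libraries, with 12 members above 100 FPKM and 12 below 10 FPKM. After DAD1 came SRP14 in both groups, and the ranges of these 2 over the 6 libraries did not meet. The next places differed between the groups. In labelled overexpression libraries they were PDIA6 at 268, RPN2 at 245 and SRP9 at 229 FPKM, and in control vector libraries SRP9 at 291, RPN2 at 207 and PDIA6 at 196 FPKM. The ranges of neighbours among these 3 overlapped in labelled overexpression and did not in control vector libraries. The table's length is the union of a gene's exons, 761 nucleotides for DAD1 and 19153 for ERN1, so genes with many rare exons are understated against others. Exons of 25 members overlap exons of another gene, and for 12 of these such a gene had at least 10% as many fragments, among them, besides those named with their genes, ALG12 for CRELD2, GLT8D1 for SPCS1, CHEK1 for STT3A and SPCS3-AS1 for SPCS3.

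Genes of the same pathways outside the 46 were near the background when pooled, with differences between the lists. In 7 wider lists of 216 genes, 203 were tested and 0 passed in either direction (limma-trend, 22 higher and 8 lower at an unadjusted p under 0.05, and 0 past the threshold with limma-voom). The 22 higher are 10.8% of those tested, against 10.4% of all genes, and the median was 0.09. The unadjusted limma-trend p was under 0.05 for 3 higher and 2 lower genes among other ER folding factors and among other ERAD genes, 2 higher and 0 lower among other targeting genes, and 2 higher and 3 lower among other N-glycosylation genes. Other ER folding factors, such as further isomerases and prolyl isomerases, had a median of 0.07 over 39 genes. FKBP2, a prolyl isomerase of the ER, and SERPINH1, the collagen chaperone HSP47, had the smallest p there and values of 0.39 and 0.38. Other targeting and insertion genes had a median of 0.07 over 32, with SEC61A2, a second channel subunit, at 0.52 and CCDC47 at 0.39. Other N-glycosylation genes had 0.05 over 39, with MAGT1, a subunit of STT3B complexes, at 0.50 and the mannosyltransferase ALG3 at -0.40. Other ERAD genes had 0.10 over 27, with the ubiquitin ligase RNF5 at -0.34 and the lectin OS9 at 0.31.

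The PERK branch, whose factor ATF4 activates amino acid and stress genes, showed 0 of 12 tested genes past the threshold (limma-trend or limma-voom). Its median was 0.13, and 1 gene was higher at an unadjusted limma-trend p under 0.05 (8.33%, against 10.4% of all tested genes). PPP1R15B, a regulator of eIF2α dephosphorylation, had 0.51 and CEBPG 0.29. Further UPR regulators had a median of 0.14 over 11 genes, of which 3 were higher at an unadjusted limma-trend p under 0.05 (27.3%, against 10.4% of all tested genes). CREB3L2, a membrane-bound transcription factor of the ATF6 type, was at 4.03 ± 0.738 FPKM in labelled overexpression and 2.00 ± 0.503 FPKM in control vector libraries (SD, n = 3 each), a log2 fold change of 0.87 that did not pass (limma-trend, Benjamini-Hochberg adjusted p = 0.102), and CREB3 had 0.36. Genes of ER to Golgi transport, which carries folded protein onward, had a median of 0.10 over 43. The groups stood apart upward for 11 of them (25.6%, against 14.2% of all tested genes), and 8 were higher at an unadjusted limma-trend p under 0.05 (18.6%, against 10.4%), while 0 passed the adjusted threshold. The receptor KDELR2, which returns chaperones to the ER, had 0.34 and the coat subunit SEC31A 0.47. Overlaps of the wider genes with others were not examined.

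**Figure D4:**
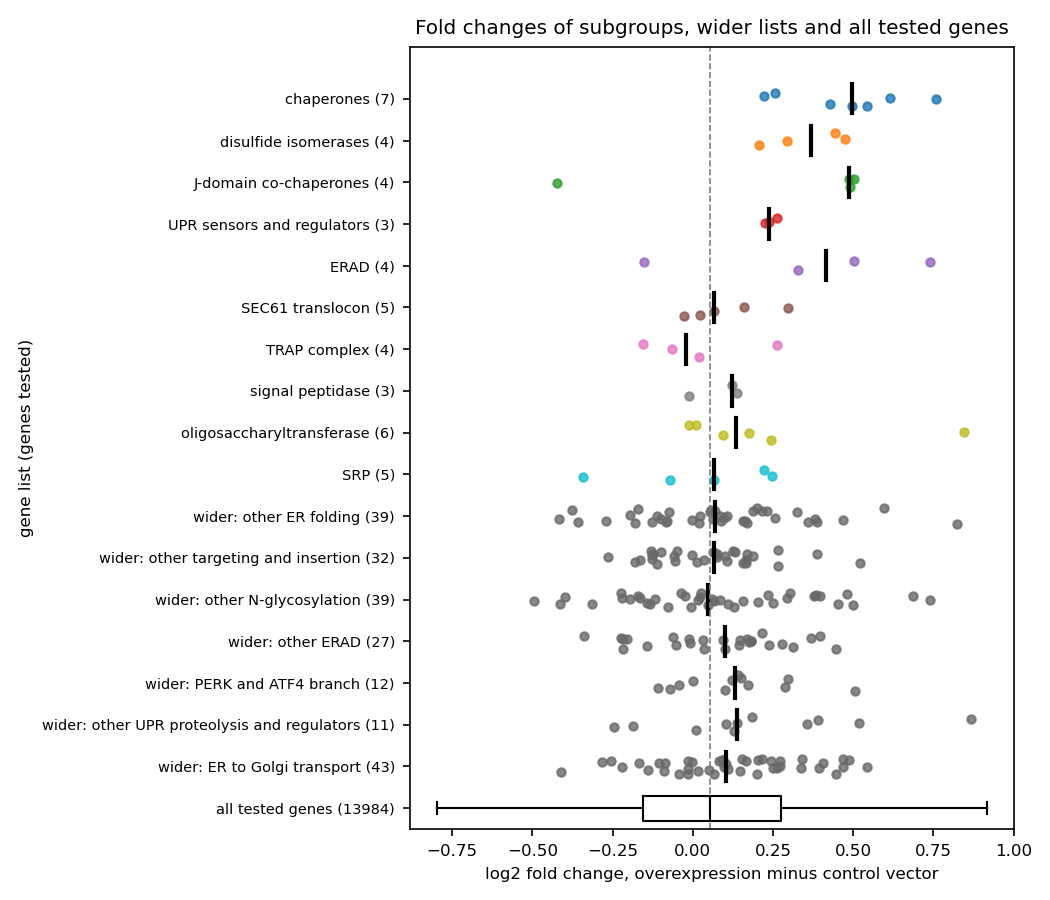
Points are log2 fold changes, labelled overexpression minus control vector, of the tested genes in each subgroup and each wider list, black bars are medians, and the box at the bottom gives the quartiles of all 13984 tested genes. The chaperone, isomerase, J-domain and ERAD medians lie between 0.37 and 0.50, and those of the wider lists between 0.05 and 0.14.

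Transcript length moved with the fold change. Across tested genes with a length Spearman's rho was 0.22, and across the 45 tested members it was 0.30. Both are descriptions over genes of the same 6 libraries, which share depth and scaling. The median of all genes was -0.06 for the shortest class (median annotated transcript at most 500 nucleotides, 1491 genes) and 0.23 for the longest (above 4000 nucleotides, 1324 genes). This trend was then taken out library by library. The medians became 0.32 for the folding genes and 0.04 for the targeting genes, against 0.00 for all genes. HSPA5 and HSP90B1 passed the test, HSP90B1 at 0.54 before and after. The length used is a median over a gene's annotated transcripts, without weights, and need not be that of the transcript expressed. It was 592 nucleotides for CANX, 571 for P4HB and 1127 for HSP90B1. How fully the trend was removed for such genes is therefore uncertain. Scaling shifted all genes as well. After each library was brought to the same FPKM total, the median of all genes was 0.15, with 181 genes called higher and 52 lower, and with median-of-ratios factors they were 55 higher and 132 lower. Relative to the median of all genes the members stood at 0.18 and 0.16 in those fits, against 0.17 as deposited. Over the 17 alternatives the folding median lay 0.31 to 0.43 above that of all genes, and the targeting median differed from it by -0.00 to 0.07.

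**Figure D5:**
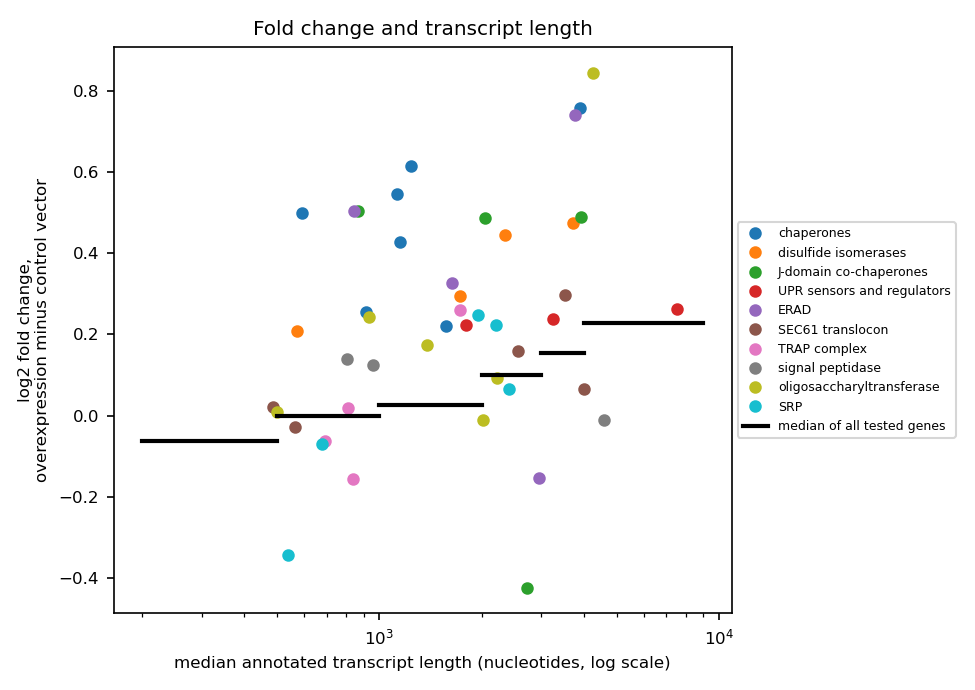
Points are the 45 tested members, coloured by subgroup, with the median annotated transcript length on a log axis and the log2 fold change, labelled overexpression minus control vector, on the other axis; black lines are medians of all tested genes in 6 length classes. The lines climb from -0.06 to 0.23, and chaperones lie above the line of their class. The length of the transcripts expressed was not measured and may place a gene in another class.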

How the data were processed

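The deposited table holds FPKM (fragments scaled by gene length and library total) per gene and library, computed by the authors; per the submitters' processing notes the builds were GRCh38.p13 and hg38 and the tools featureCounts 2.0.1 and STAR 2.7.9, whose options are not stated. The deposited gene length, in nucleotides, is the union of exons. Depth was recovered from the steps of the values, which are multiples of 0.01 fragment (tolerance 0.001), with 44.2% to 49.0% whole, so no count model was the main test. Depth bounds the precision by counting error only.

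Genes with at least 1 FPKM in at least 3 of 6 libraries (13984) entered the main test, limma-trend (limma 3.58.1, R 4.3.3) fitted to log2(FPKM + 0.5) by group alone, with Benjamini-Hochberg adjustment over all of them at 0.05; the fit was tested on simulated data. Members and lists were chosen with earlier results of these data known. Per-library values are given for members past the threshold, the member of smallest p per subgroup, XBP1, ATF6 and ERN1, and, chosen after their values were seen, for DNAJB9, STT3B and single libraries of HYOU1 and SEC63; of the wider lists, the 2 genes of smallest p. Transcript lengths are from GENCODE v29. Alternatives changed the pseudocount, filter, scaling, trend, weights, length trend, block or libraries, or used limma-voom.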

Additional observations from a re-analysis of the deposited data

How the results depend on the processing

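The counts depended on the settings more than the fold changes did. Against 159 calls over all genes and 2 members higher, there were 0 and 0 without a filter on low values, 330 and 8 with a mean of at least 5 FPKM, 0 and 0 without the trend, 265 and 5 with array weights, and 229 and 4 with a replicate block. Members higher were 7 with values rescaled to a common total and 1 with median-of-ratios factors. Leaving out 1 library gave 0 to 124 calls, 0 to 1 members higher and 0 to 1 wider genes higher; only without control vector replicate 3 was the first number above 3. Without a filter 3538 genes, and without the trend 2304, had an unadjusted limma-trend p under 0.05. The member median was 0.33 after rescaling, 0.16 with median-of-ratios factors and 0.15 with the length trend removed. For 59 single genes 930 comparisons kept sign and side of the threshold, 16 lost a call, 18 gained one and 34, in 12 uncalled genes, changed sign; 0 called values did. Of the comparisons of subgroup medians 153 moved by less than the spread between libraries and 17 by more. The causes were not tested.

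Same-numbered libraries correlated at -0.02, 0.11 and 0.12 in their deviations from group means. For labelled overexpression libraries 2 and 3 the same-numbered control vector library correlated best. For library 1 it was control vector library 2 (0.10). These correlations do not settle whether the numbers pair the samples. The main fit left pairing out and gave 159 calls over all genes, against 229 with a replicate block. The replicate block added PDIA3 and SDF2L1 to the members called.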

Other observations

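ERSE letters were also found in the promoter windows of tested genes outside the 46, with a median near that of all genes. SERP1, which steadies membrane proteins at the translocon, had a log2 fold change of 0.10, and ALG12, a mannosyltransferase of the glycan precursor, had 0.07. FICD, the enzyme that attaches AMP to BiP, had 0.26, EIF2A 0.01, TMEM120A -0.02 and ZNF17 -0.02. Over these 6 genes the median was 0.04, against 0.07 over 8661 tested genes with a window and no ERSE. The 6 members with ERSE, all of them folding genes, had a median of 0.52. ALG12 overlaps CRELD2, a member at 0.61, on the other strand. The CRELD2 element (chr22:49918554-49918572) lies upstream of the deposited start of ALG12 (chr22:49918438, minus strand). The matches counted for CRELD2 and ALG12 may therefore be the same element.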
